A study of Pseudotsuga menziesii with 72 samples.

Results

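The morning change in the needle transcriptome of Douglas-fir (Pseudotsuga menziesii) was measured as 10:00 against 6:00. Of the 72 libraries of the series, 22 belong to this comparison, 12 from 10:00 and 10 from 6:00, and 20 of them form 10 complete pairs, each from a single tree on a single day. The study sampled needles of 6 trees every 4 h over 2 days and counted polyA RNA from strand-specific libraries. The trees were 3 years old and came from a low-elevation Oregon Siskiyou source. They represent 3 half-sib families, 1A and 1B of the first, 2A and 2B of the second and 3A and 3B of the last by their names, and stood in Corvallis, where the collections were made in September. Each sample pooled 8 to 12 needles from branches on the 4 cardinal sides of a tree. The labels name no treatment, and all trees shared each collection: 10:00 is the third collection of a day and 6:00 the second.

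Clock times are the hours in the library titles plus 2, since the first collection was at 2 AM per the labels. A separate collection-time label disagrees with most titles, and the titles were used. No light or temperature reading accompanies the samples. The onset of daylight, the warming of the morning and the time of the internal clock therefore cannot be told apart here, and the comparison is called by its clock times. Morning 1 and morning 2 are single dates, and the same tree was sampled again and again, so p-values describe these trees on these dates.

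In plants, the hours around dawn are a turning point of daily gene expression. Photoreceptors respond to light, photosynthesis starts, and the circadian clock, a loop of transcription factors that switch each other on and off in turn, is reset by light and temperature. In Arabidopsis, many transcripts are known to anticipate dawn and others to answer light within minutes to hours, some as short pulses and others as plateaus that last the day. The deposited tables give transcripts by identifier without a gene name, so none of the transcripts below can be given a role, and transcripts that share reads with a near-identical copy cannot be told from the others. Levels are in CPM, counts scaled to a common library total after TMM scaling (trimmed mean of M-values). They are not corrected for transcript length, so where transcripts are ranked or grouped by CPM, the order is one of counts, on which transcript length also bears.

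A pair of libraries went against their tree labels. After removal of the collection means, 70 of the 72 libraries lay nearest their own tree. The 6:00 library of morning 1 labelled 1B correlated with its own tree at r = -0.24 and with tree 2A at 0.76, and the one labelled 2A correlated with its own tree at -0.26 and with 1B at 0.74. Both were left out, so morning 1 had 4 complete pairs (1A, 2B, 3A, 3B) and morning 2 had 6. The lowest own-tree correlation among the other libraries was 0.56. Totals ran from 10.3 to 33.4 M counts at 10:00, with a median of 24.2 M, and from 11.0 to 33.5 M at 6:00, with a median of 19.7 M. The 6:00 libraries of trees 3A and 3B on morning 2 were the shallowest of their trees on these mornings, with 25.02 and 26.5 M counts at 10:00 against 11.0 and 11.1 M at 6:00, and the part of depth in the changes was not tested.

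Many transcripts changed within these 4 h of the morning, in both directions. Of 35177 transcripts tested, 3919 (11.1%) were higher and 4497 (12.8%) lower at 10:00 than at 6:00 at an adjusted p under 0.05, 23.9% in all (edgeR's quasi-likelihood test with the 10 pairs as a block). Most changes were modest. The median log2 change, where 1 unit is a 2-fold change, was 0.63 among the risen (quartiles 0.35 and 1.00) and -0.60 among the fallen (quartiles -0.89 and -0.41), beside -0.0038 over all transcripts tested. A change of at least 2-fold was fitted for 985 risen (2.8% of those tested) and 827 fallen transcripts (2.35%). At least 4-fold changes numbered 135 risen and 79 fallen, and at least 8-fold changes 18 risen and 10 fallen.

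The direction was the same in all pairs for part of these changes. Among the risen, 1433 (36.6%) were higher at 10:00 in all 10 pairs, and among the fallen, 1753 (39.0%) were lower in all 10. Over all 35177 transcripts tested 1538 were higher and 1779 lower in all 10, and since the calls come from these pairs, the agreement is partly set by the call. Fully separate groups were few among the 20 paired libraries: 79 transcripts (0.225% of those tested) had every 10:00 library above every 6:00 library, and 80 (0.227%) had every one below. Leaving out tree 2B took the number of risen transcripts down to 2596, and no other single tree moved the risen or the fallen by more than 1.5 times. The trees share each collection, and when each collection was reduced to the sum of its trees, 1285 rose and 1210 fell.

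The share of transcripts called was larger at high CPM, and that of large changes smaller. Over 4 equally large classes with median levels of 0.794, 2.29, 7.98 and 36.2 CPM, the share that rose was 6.57%, 9.89%, 12.1% and 16.02%, and the share that fell was 8.12%, 12.6%, 15.9% and 14.6%. The share that rose at least 2-fold was 3.74%, 3.59%, 2.46% and 1.41%, and the share that fell at least 2-fold was 3.05%, 2.60%, 2.46% and 1.30%.

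The transcripts with the largest rises stood at 9.83 CPM or more in every library at 10:00 and at 24.3 CPM or less at 6:00, on both mornings and in every tree. Transcripts named as the largest rises and falls have at least 10 CPM on average, pass the test and change the same way in all 10 pairs. Their ranges and medians cover the 20 paired libraries, without the 10:00 libraries of trees 1B and 2A on morning 1. The largest rise belonged to psme_t016053, whose 10 libraries at 10:00 spanned 63.6 to 88.2 CPM (median 70.6), against 0.430 to 1.97 CPM (median 1.42) at 6:00. Its 10:00 libraries lay within a narrow band, and all were far above the 6:00 libraries. Tree 2B was the highest of the paired trees on both mornings, with 88.2 CPM on morning 2 and 77.6 CPM on morning 1. The log2 change was 5.76 ± 0.17 (SE, adjusted p = 3.86e-11), 5.67 ± 0.19 on morning 2 and 5.90 ± 0.24 on morning 1.

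Of the other transcripts named for their rise, 3 rose by more than 4 on the log2 scale. At 10:00 psme_t002108 stood at 33.7 to 62.2 CPM (median 45.1), against 0.480 to 3.06 CPM (median 1.19) at 6:00. Its log2 change was 5.13 ± 0.16. For psme_t001740 the range was 41.1 to 79.1 CPM (median 52.5) at 10:00 and 0.719 to 3.74 CPM (median 1.55) at 6:00, a log2 change of 5.07 ± 0.13. The highest 6:00 library of both transcripts lay more than 10 times below their lowest 10:00 library. The 10:00 libraries of psme_t008667 held 29.9 to 67.0 CPM (median 52.8) and its 6:00 libraries 1.49 to 4.68 CPM (median 2.70), a log2 change of 4.13 ± 0.14. In these 3 transcripts, too, the groups did not overlap, and the adjusted p ran from 1.43e-11 to 1.43e-10.

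The other 2 of the largest rises were smaller. At 10:00 psme_t041037 ranged from 19.5 to 156 CPM (median 75.04), against 2.24 to 24.3 CPM (median 8.40) at 6:00. The groups overlapped although every pair rose, by 1.38 to 4.99 on the log2 scale, and the fitted change was 2.92 ± 0.28 (adjusted p = 6.08e-06). For psme_t034684 the 10:00 libraries held 9.83 to 41.4 CPM (median 21.7) and the 6:00 libraries 0.963 to 6.57 CPM (median 4.34). Its groups were separate, with a log2 change of 2.71 ± 0.15 (adjusted p = 5.37e-08).

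**Figure D1:**
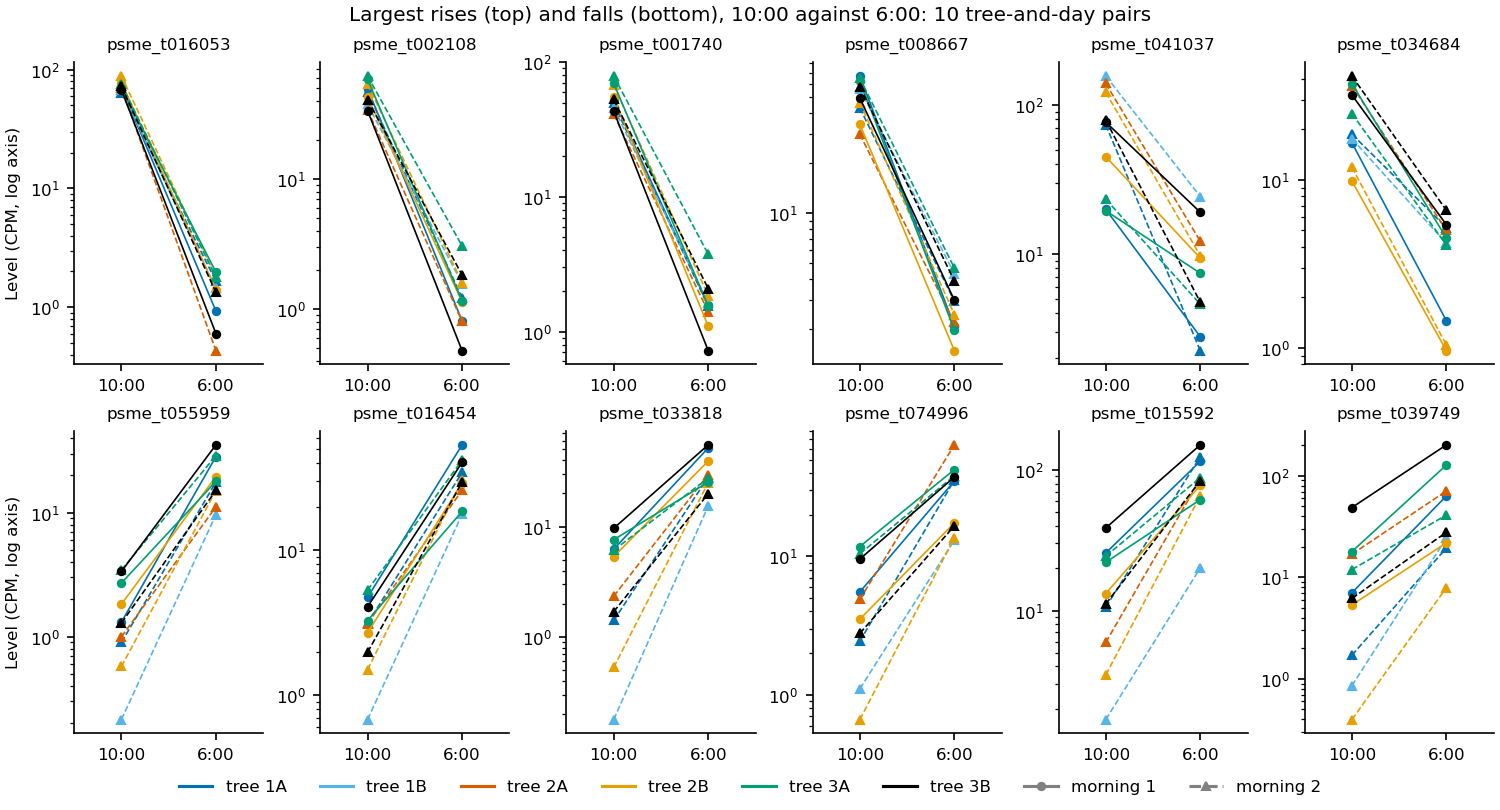
Levels (CPM, log axis) at 10:00 and 6:00 of the 6 transcripts with the largest rises (top) and the 6 with the largest falls (bottom), 1 line for each of the 10 tree-and-day pairs, coloured by tree, with circles for morning 1 and triangles for morning 2. All lines of a panel run the same way; psme_t016053 lies at 63.6 to 88.2 CPM at 10:00 and at 0.430 to 1.97 CPM at 6:00.

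A few transcripts were near absent at one of the times. Below 1 CPM on average at 6:00 and at least 10 CPM at 10:00 were 4 of the risen transcripts, and the reverse held for 2 of the fallen. Only psme_t004354 among these 4 rose in all 10 pairs, with a mean of 10.5 CPM at 10:00 against 0.835 CPM at 6:00 (log2 change 3.63 ± 0.15). The other 3 (psme_t058176, psme_t021834 and psme_t033157) rose in 9, 8 and 7 pairs. The pair that fell, psme_t057176 and psme_t039271, had means of 0.981 and 0.932 CPM at 10:00, against 11.7 and 12.4 CPM at 6:00, and fell in all 10 pairs. These 6 were picked out by their levels, after the values were seen.

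The 3 risen transcripts of highest CPM that rose at least 2-fold and in all 10 pairs had fitted log2 changes of 1.20 to 1.44. At 10:00 psme_t021187 ranged from 280.4 to 3225 CPM (mean 1437 ± 1004, SD, n = 10), against 108 to 943 CPM (mean 512 ± 281) at 6:00. The log2 change was 1.30 ± 0.16 (adjusted p = 4.64e-05), but single pairs rose by as little as 0.25 and as much as 2.31. In psme_t020318 the mean was 508 ± 292 CPM at 10:00 and 173 ± 75.7 CPM at 6:00, a log2 change of 1.44 ± 0.12 (adjusted p = 2.10e-06). The mean of psme_t016361 was 131 ± 85.3 CPM at 10:00 and 48.5 ± 14.9 CPM at 6:00, a log2 change of 1.20 ± 0.18 (adjusted p = 0.000249). The groups of all 3 overlapped, although every pair rose.

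The 6 transcripts with the largest falls had median levels of 1.30 to 12.2 CPM at 10:00, against 17.8 to 85.0 CPM at 6:00. The 10:00 libraries of psme_t055959 held 0.214 to 3.44 CPM (median 1.30), against 9.63 to 35.3 CPM (median 17.8) at 6:00. Its log2 change was -3.69 ± 0.20 (adjusted p = 2.84e-08). For psme_t016454 the range was 0.678 to 5.31 CPM (median 3.12) at 10:00 and 17.7 to 53.5 CPM (median 29.9) at 6:00, a log2 change of -3.47 ± 0.17 (adjusted p = 8.82e-09). In both transcripts every 10:00 library lay below every 6:00 library.

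The next falls were less even between trees and mornings. At 10:00 psme_t033818 ranged from 0.178 to 9.66 CPM (median 3.84), against 15.4 to 55.1 CPM (median 27.9) at 6:00, and single pairs fell by 1.73 to 5.96 on the log2 scale. The groups of psme_t074996, at 0.662 to 11.8 CPM at 10:00 and 13.1 to 64.0 CPM at 6:00, came close without overlap. The fitted log2 changes were -3.28 ± 0.32 for psme_t033818 (adjusted p = 7.02e-06) and -2.78 ± 0.23 for psme_t074996 (adjusted p = 1.68e-06). In psme_t015592 the level was 15.7 ± 11.7 CPM at 10:00 and 87.3 ± 36.4 CPM at 6:00, and in psme_t039749 it was 11.7 ± 14.4 CPM at 10:00 and 60.7 ± 60.8 CPM at 6:00 (SD, n = 10 each). The groups of both transcripts overlapped, although all 10 pairs fell. The highest level of psme_t039749 at 10:00, 48.7 CPM in tree 3B on morning 1, came with 202 CPM in the same tree at 6:00.

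The fallen transcripts of highest CPM averaged 539 to 681 CPM at 10:00 and 1118 to 1367 CPM at 6:00. The mean of psme_t046935 was 539 ± 121 CPM at 10:00 and 1118 ± 173 CPM at 6:00, with ranges of 404 to 775 CPM at 10:00 and 874 to 1431 CPM at 6:00 that did not meet. Its log2 change was -1.09 ± 0.12 (adjusted p = 1.88e-05). In psme_t027905 the mean was 671 ± 407 CPM at 10:00 and 1367 ± 237 CPM at 6:00, and in psme_t016090 it was 681 ± 443 CPM at 10:00 and 1340 ± 627 CPM at 6:00 (SD, n = 10 each). The groups of both overlapped, and single pairs of psme_t027905 fell by as little as 0.17 and as much as 3.51 on the log2 scale. On morning 1 alone psme_t027905 did not pass (log2 change -0.50 ± 0.14, adjusted p = 0.095), while on morning 2 it fell by 1.86 ± 0.29 (adjusted p = 0.0013).

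The mornings were next set side by side. With 6 trees, morning 2 alone gave 3923 higher (11.1% of 35222 tested) and 3701 lower transcripts (10.5%). With 4 trees, morning 1 alone gave 576 higher (1.57% of 36598 tested) and 802 lower (2.19%). Part of this gap goes with the number of trees: in the same 4 trees morning 2 gave 1835 higher and 1767 lower. On morning 1 the counts also leaned on single trees, with 210 higher and 319 lower without tree 2B, 220 and 312 without 3B, and 475 lower without 3A.

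Most transcripts chosen on morning 1 moved the same way on morning 2, in libraries that had no part in choosing them. Of the 553 risen on morning 1 and tested on morning 2, 415 (75.05%) were called higher there, against 10.7% of all transcripts tested on both mornings, and 97.1% had the same sign, against 49.5% of all. Of the 763 fallen, 653 (85.6%) were called lower, against 10.9% of all. Their median log2 change on morning 2 was 1.05 for the risen and -1.08 for the fallen, beside 1.20 and -0.97 on morning 1, which had chosen them. In the other direction, transcripts chosen on morning 2 had median log2 changes of 0.28 (risen) and -0.39 (fallen) on morning 1, beside 0.76 and -0.73 on morning 2. There 415 of 3617 (11.5%) passed as higher, against 1.64% of all, and 653 of 3665 (17.8%) as lower, against 2.26% of all. Values of the morning that chose a list are raised by the choice. Across 33736 transcripts tested on both mornings the log2 changes correlated with Pearson's r = 0.65 and Spearman's rho = 0.54, a description across transcripts that share libraries and are no replicates.

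**Figure D2:**
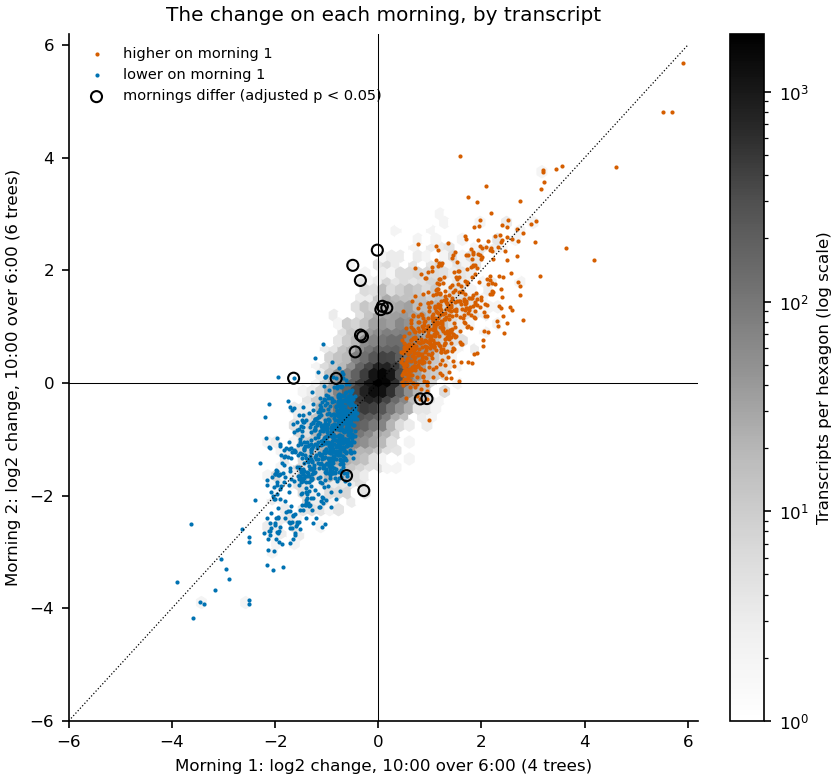
Log2 change from 6:00 to 10:00 of 33690 transcripts on morning 1 (horizontal, 4 trees) and morning 2 (vertical, 6 trees), with shading for the number of transcripts, colours for those called on morning 1 and rings around the 15 transcripts whose change differed between mornings. Coloured points lie mostly in the quadrants of equal sign: 97.1% of the risen list of morning 1 had a positive change on morning 2.

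The share of all counts held by the lists moved with them. The 576 transcripts risen on morning 1 held 1.83% to 2.89% of the counts of the 10:00 libraries on morning 2 (median 2.22%), against 1.04% to 1.40% (median 1.23%) of the 6:00 libraries. The 802 fallen held 0.991% to 1.42% (median 1.13%) at 10:00, against 2.06% to 2.72% (median 2.34%) at 6:00. The groups of 6 libraries did not overlap in either list of morning 1. For the lists of morning 2 the groups overlapped on morning 1: the 3923 risen held 9.04% to 12.3% at 10:00, against 8.44% to 9.78% at 6:00, and the 3701 fallen held 11.6% to 15.6% at 10:00, against 14.7% to 18.4% at 6:00, in 4 libraries each. Within each of the 4 trees, however, the risen list held more at 10:00 than at 6:00 (9.76% against 8.68% in 1A, 12.3% against 9.78% in 2B, 9.04% against 8.44% in 3A and 10.6% against 8.69% in 3B). The fallen list held less in each of them (15.6% against 18.4% in 1A, 14.0% against 17.0% in 2B, 14.0% against 16.2% in 3A and 11.6% against 14.7% in 3B).

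All 6 trees took part. On morning 2 the median log2 change of the transcripts risen on morning 1 was 1.12 (tree 1A), 1.09 (1B), 1.07 (2A), 1.06 (2B), 0.78 (3A) and 1.12 (3B). That of the fallen was -1.12 (tree 1A), -1.16 (1B), -0.92 (2A), -1.29 (2B), -0.83 (3A) and -0.86 (3B). Trees 1B and 2A had no part in the choice on morning 1. Tree 3A had the smallest median in both lists. On morning 1 the transcripts risen on morning 2 had medians of 0.31 (tree 1A), 0.38 (2B), 0.14 (3A) and 0.32 (3B), and those fallen had -0.32 (tree 1A), -0.40 (2B), -0.39 (3A) and -0.36 (3B). The 3A median was thus the smallest for the risen and not for the fallen, and over all transcripts the 3A pair of morning 1 had a median of -0.05.

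A direct test of whether the change differed between mornings passed for 15 of 35177 transcripts (0.0426%), 11 with the change of morning 2 above that of morning 1 and 4 with it below. At an unadjusted p under 0.05 there were 4269 (12.1%). The differences spanned 0.91 to 2.61 on the log2 scale. Of the 15, 9 were higher and 2 lower on morning 2 alone, where 11.1% and 10.5% of all tested were, and 5 passed on morning 1 alone, where 1.57% of all tested were higher and 2.19% lower. The changes had opposite signs on the mornings in 10 of the 15. Since the 15 were chosen for a difference between mornings, these counts describe them and support nothing. The count is unsteady: it was 74 without tree 1A, 29 without 1B, 3 without 2A, and 1 without 2B or without 3B. Other settings gave 0 to 1166, the highest of them with no filter on low counts (155153 tested). The mornings differ in date and in every condition of their dates, which cannot be told apart.

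Among transcripts of at least 10 CPM on average, the largest differences belonged to psme_t068311 and psme_t050609, which rose on morning 2 and did not pass on morning 1. At 10:00 on morning 2 psme_t068311 had 71.5, 42.6, 70.8, 22.6, 4.76 and 48.8 CPM in trees 1A, 1B, 2A, 2B, 3A and 3B, against 7.67, 10.2, 20.5, 4.39, 1.70 and 17.2 CPM at 6:00. On morning 1 it had 1.81, 2.79, 0.925 and 10.6 CPM at 10:00 in trees 1A, 2B, 3A and 3B, against 0.986, 6.88, 1.76 and 11.8 CPM at 6:00. Every tree was higher at 10:00 on morning 2, and of the paired trees only 1A was on morning 1. Trees 1B and 2A had no pair on morning 1. The left-out 6:00 libraries labelled 1B and 2A held 2.63 and 3.22 CPM of psme_t068311. At 10:00 of morning 1 all 6 trees had a mean of 4.70 CPM and a median of 3.20 CPM. In the paired trees the log2 change of psme_t068311 was 2.09 ± 0.21 on morning 2 and -0.49 ± 0.29 on morning 1. The difference was 2.61 ± 0.39 (adjusted p = 0.0321). In psme_t050609 the change was 1.82 ± 0.20 on morning 2 and -0.35 ± 0.23 on morning 1, a difference of 2.16 ± 0.35 (adjusted p = 0.0481). At a lower level of 2.89 CPM on average, psme_t028575 differed by 2.40 ± 0.28 (adjusted p = 0.0136), and it is named here after its values were seen.

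Of the 4 differences in the other direction, the larger 2 were those of psme_t015491 and psme_t020047. The change of psme_t015491 was -1.91 ± 0.17 on morning 2 and -0.28 ± 0.13 on morning 1, a difference of -1.62 ± 0.25 (adjusted p = 0.0373). It stood at 16.2 to 151 CPM at 10:00 and 90.2 to 355 CPM at 6:00 on morning 2. On morning 1 the same 4 trees as above stood at 69.01 to 164 CPM at 10:00 and 97.5 to 156 CPM at 6:00. For psme_t020047 the change was -0.28 ± 0.10 on morning 2 (adjusted p = 0.0787) and 0.94 ± 0.14 on morning 1 (adjusted p = 0.0084). It rose in all 4 pairs of morning 1 and was lower in 4 of the 6 pairs of morning 2, a difference of -1.21 ± 0.18 (adjusted p = 0.0321). On morning 2 psme_t020047 stood at 128 to 291 CPM at 10:00 and 171 to 258 CPM at 6:00. In the 4 trees of morning 1 it stood at 181 to 312 CPM at 10:00 and 101 to 114 CPM at 6:00. The left-out 6:00 libraries of that morning, labelled 1B and 2A, held more, with 171 and 183 CPM.

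**Figure D3:**
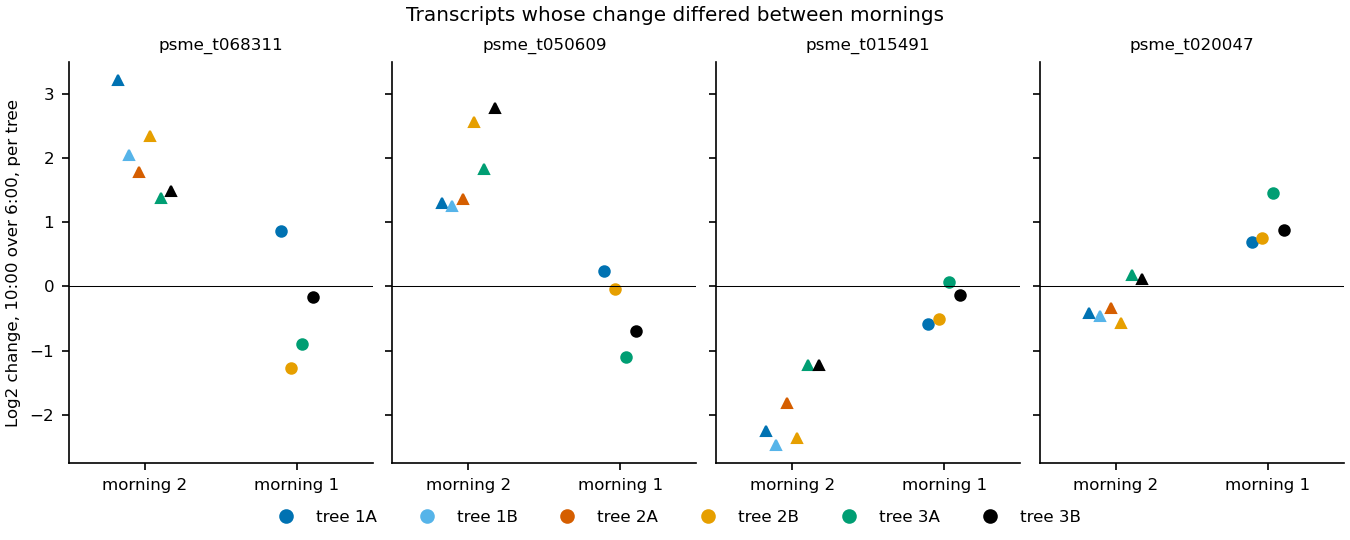
Log2 change from 6:00 to 10:00 in each tree (colours) on morning 2 (triangles, 6 trees) and morning 1 (circles, 4 trees) for the 4 transcripts named for a difference between mornings. For psme_t068311 the 6 trees of morning 2 lie at 1.37 to 3.21 and the 4 of morning 1 at -1.27 to 0.87, without overlap.

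A test of whether the change differed between trees passed for 0 of 35177 transcripts in edgeR, with 1352 (3.84%) at an unadjusted p under 0.05. Limma on the authors' normalized values also passed 0 (1451 unadjusted), while a DESeq2 likelihood ratio test passed 52 (926 unadjusted). Only the 4 trees with both mornings give an estimate of the spread in this test. That spread is the difference between the mornings within a tree, and it includes any difference between mornings that the trees shared. A p that misses the threshold does not show that trees acted alike. Among transcripts of at least 10 CPM on average, the smallest p belonged to psme_t024398 and psme_t024906. In psme_t024398 all 10 pairs were lower at 10:00, with log2 changes of -1.40 and -1.55 for tree 1A, -2.635 for 1B, -1.18 for 2A and between -0.77 and -0.29 for 2B, 3A and 3B. The change of psme_t024906 was 1.86 and 2.22 in tree 2B, 0.71 and 0.76 in 3B, and between -0.72 and 0.47 in the others.

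The transcripts chosen on morning 1 were then followed through day 2, in 36 libraries that did not choose them. The share above 6:00 in the risen list was smaller at each later time, and most of the fallen list was below 6:00 until 18:00. Of 573 risen transcripts, 78.9% passed as higher than at 6:00 at 10:00, 55.5% at 14:00, 38.4% at 18:00 and 25.3% at 22:00, beside 12.2%, 20.2%, 21.3% and 14.5% of all 46280 transcripts tested. Their median log2 level relative to 6:00 was 1.09, 0.75, 0.30 and 0.09 at these times. In the same list 22.7% were called lower than at 6:00 by 18:00 and 18.5% at 22:00, beside 21.1% and 12.8% of all. Of 801 fallen transcripts, 85.3% passed as lower at 10:00, 77.8% at 14:00, 65.2% at 18:00 and 27.1% at 22:00, beside 10.4%, 19.6%, 21.1% and 12.8% of all. Their medians were -1.07, -1.16, -0.83 and -0.12.

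From 10:00 to 14:00 the lists moved in both directions. Of the risen, 209 were lower and 83 higher at 14:00 than at 10:00, and of the fallen, 192 were lower and 180 higher, beside 12.6% lower and 13.4% higher of all transcripts. By mean level over day 2, 337 (58.8%) of the risen transcripts were highest at 10:00 and 158 (27.6%) at 14:00, beside 18.9% and 15.8% of all. Of the fallen, 376 (46.9%) were lowest at 10:00 and 291 (36.3%) at 14:00, beside 16.8% and 17.2% of all. Their highest mean fell at 6:00 for 347 (43.3%), at 22:00 for 228 (28.5%) and at 2:00 for 156 (19.5%), beside 18.5%, 14.2% and 12.7% of all.

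Some of these transcripts already differed between 2:00 and 6:00. On day 2, 54 (9.42%) of the 573 risen transcripts were lower at 2:00 than at 6:00 and 16 (2.79%) higher, and of the 801 fallen, 42 (5.24%) were lower at 2:00 and 13 (1.62%) higher. Over all transcripts 0.877% were lower and 0.776% higher at 2:00. The median log2 level at 2:00 relative to 6:00 was -0.07 in the risen and -0.06 in the fallen.

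**Figure D4:**
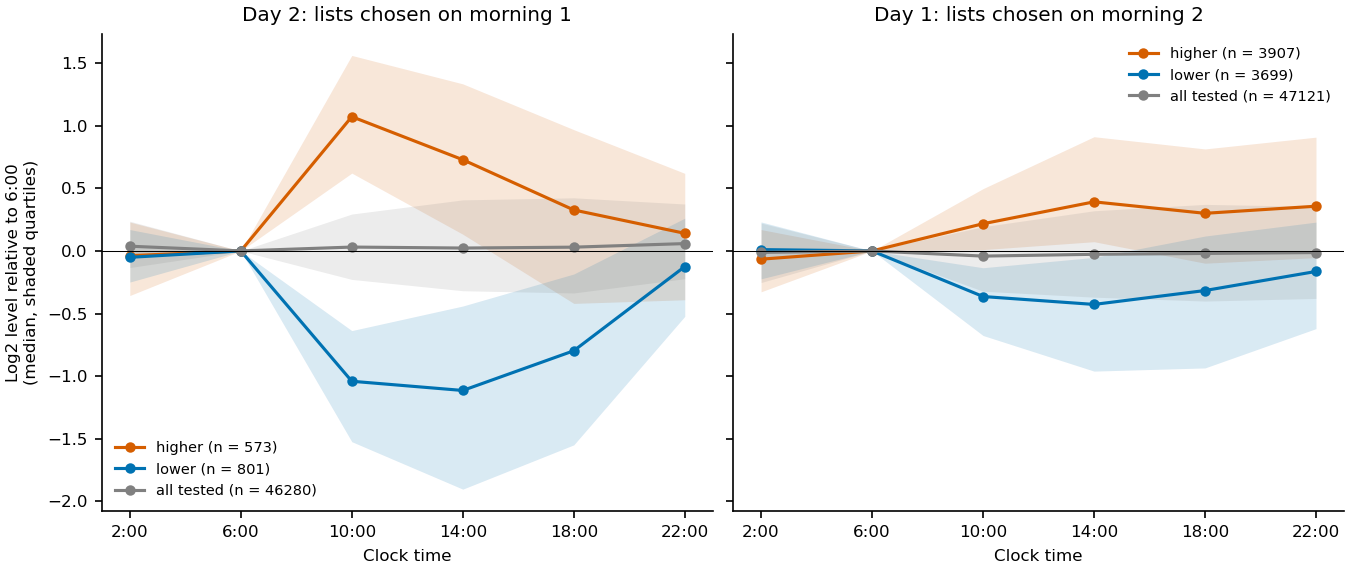
Median log2 level relative to 6:00 by clock time, with quartiles shaded, of transcripts called higher (orange) and lower (blue) at 10:00 and of all transcripts tested (grey). On day 2 (left, lists of morning 1) the fallen stay low until 18:00 while the risen come down from 10:00 on; on day 1 (right, lists of morning 2) the changes at 10:00 are smaller.

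In the reverse direction, the 3907 transcripts risen and 3699 fallen on morning 2 were followed over day 1. There 12.6% of the risen passed as higher at 10:00, 36.7% at 14:00, 35.0% at 18:00 and 38.3% at 22:00, beside 1.87%, 10.5%, 13.6% and 12.0% of all 47121 tested. Of the fallen, 22.1%, 46.1%, 41.0% and 28.2% passed as lower at these times, beside 2.75%, 11.2%, 13.1% and 11.8% of all. Medians of the risen were 0.27, 0.45, 0.35 and 0.39, and those of the fallen -0.37, -0.45, -0.32 and -0.16. From 10:00 to 14:00 of day 1, 782 of these risen transcripts were higher and 260 lower at 14:00, and 510 of the fallen were higher and 807 lower, beside 9.56% higher and 7.68% lower of all. Between 2:00 and 6:00 of day 1, 63 (1.61%) of the risen were lower at 2:00 and 5 (0.128%) higher. Of the fallen, 35 (0.946%) were lower and 19 (0.514%) higher, beside 0.49% lower and 0.149% higher of all. Over day 1 the risen of morning 2 had their largest median at 14:00 and not at 10:00, unlike the list of morning 1 on day 2. The lists differ, with 3907 transcripts chosen in 6 trees here and 573 chosen in 4 trees there. At 6:00 day 1 also has only 4 trees. The contrast is therefore not one of the days alone.

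Single transcripts showed how different the courses behind these medians were. The largest rise, psme_t016053, was a pulse: its mean was 1.21 CPM at 2:00, 1.33 at 6:00, 73.2 at 10:00, 16.9 at 14:00, 6.06 at 18:00 and 2.46 at 22:00. The course of psme_t008667 was alike from 10:00 to 18:00, with means of 51.0 CPM at 10:00, 10.6 at 14:00 and 3.78 at 18:00. It differed at night, with 1.07 CPM at 2:00, 2.91 at 6:00 and 1.53 at 22:00. On day 2 its log2 level relative to 6:00 was -1.87 ± 0.20 at 2:00 and -1.64 ± 0.19 at 22:00. Both passed, while psme_t016053 passed at neither time. Unlike both transcripts, psme_t002108 stayed up after 10:00, at 46.7 CPM at 10:00, 63.4 at 14:00, 38.3 at 18:00 and 10.6 at 22:00. From 10:00 to 14:00 on day 2 psme_t016053 fell by 1.92 ± 0.14 and psme_t008667 by 2.10 ± 0.15, while psme_t002108 rose by 0.60 ± 0.13 and psme_t001740 by 0.61 ± 0.11 on the log2 scale (adjusted p from 8.2e-13 to 0.000588).

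In other transcripts the rise at 10:00 was the foot of a much larger one. The transcripts below were ranked among the 194 that rose and the 333 that fell on morning 1 alone, passed likewise on day 2 and had at least 10 CPM on average. Named for the largest further rise to 14:00 on day 2 were psme_t029522 and psme_t043217. On day 2 psme_t029522 averaged 6.12 CPM at 6:00, 30.3 at 10:00, 559 at 14:00, 149 at 18:00 and 33.0 at 22:00. Day 1, which had no part in ranking the further rise, gave 6.97 CPM at 6:00, 18.9 at 10:00, 419 at 14:00 and 51.3 at 18:00. The means of psme_t043217 were 4.42 CPM at 6:00, 15.7 at 10:00 and 267 at 14:00 over both days. On both days the lowest tree at 14:00 lay above the highest tree at 10:00 in both transcripts.

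The largest falls between 10:00 and 14:00 of day 2 among these 194 risen transcripts were those of psme_t059487 and psme_t003834. Over both days psme_t003834 averaged 12.6 CPM at 2:00, 31.9 at 6:00, 77.9 at 10:00, 16.4 at 14:00 and 9.28 at 18:00, and on neither day did its trees overlap between 2:00 and 6:00. At 14:00 of day 2, whose values ranked the fall, psme_t003834 lay below its 6:00 level by 1.03 on the log2 scale. Day 1 had no part in that ranking and gave 24.1 CPM at 6:00 (n = 4) and 14.3 at 14:00 (n = 6). The level of psme_t059487 was 13.4 ± 8.21 CPM at 10:00 and 6.95 ± 3.92 CPM at 6:00 and then 4.21 ± 2.85 CPM at 14:00.

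**Figure D5:**
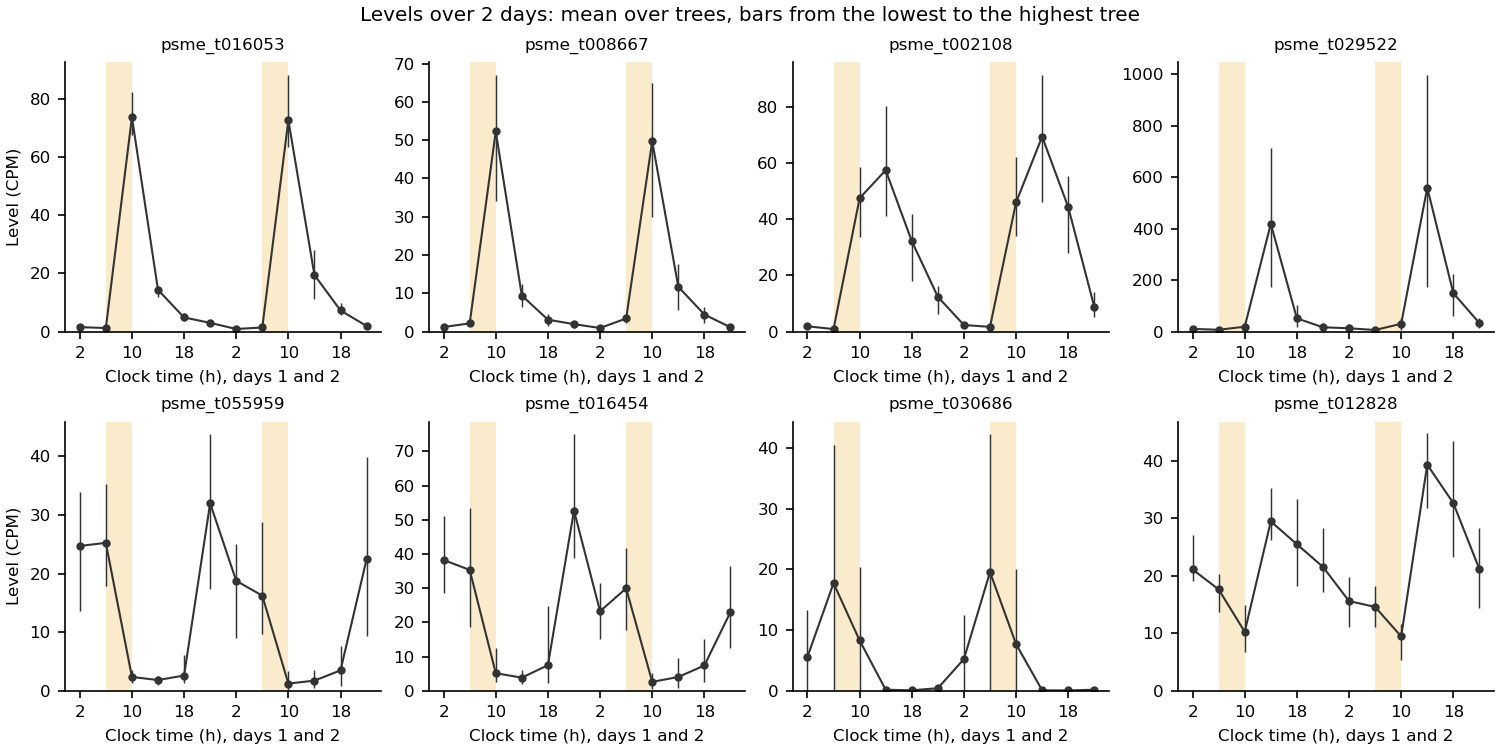
Mean level (CPM) over the trees at each of 12 collections on days 1 and 2 for 8 named transcripts, with bars from the lowest to the highest tree and the hours from 6:00 to 10:00 shaded. The level of psme_t016053 peaks at 10:00 on both days (73.7 and 72.7 CPM), psme_t029522 at 14:00 (419 and 559 CPM), and psme_t012828 is lowest at 10:00 (10.3 and 9.47 CPM).

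Falls, too, took several courses. The means of psme_t055959 were 19.8 CPM at 6:00, 1.803 at 10:00, 1.79 at 14:00, 3.05 at 18:00 and 27.2 at 22:00, a low plateau through the day. For psme_t016454 they were 32.1 CPM at 6:00, 3.89 at 10:00, 3.95 at 14:00, 7.46 at 18:00 and 37.9 at 22:00. The fall of psme_t042932 went on after 10:00, with 19.3 CPM at 6:00, 6.91 at 10:00, 0.905 at 14:00, 0.732 at 18:00 and 6.78 at 22:00. The lowest point of psme_t012828 and psme_t001631 was 10:00 itself. In psme_t012828 the means were 15.8 CPM at 6:00, 9.87 at 10:00 and 34.4 at 14:00, and in psme_t001631 they were 25.8 CPM at 6:00, 16.5 at 10:00 and 48.6 at 14:00. Both were named for their return from 10:00 to 14:00 on day 2. On that day the level at 14:00 was above that at 6:00 by 1.43 for psme_t012828 and 0.79 for psme_t001631 on the log2 scale. Day 1 had no part in ranking the return. It gave psme_t012828 17.6 CPM at 6:00 (n = 4) and 29.5 at 14:00 (n = 6), and psme_t001631 27.4 and 53.7 CPM.

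The largest further fall to 14:00 among the 333 fallen transcripts belonged to psme_t030686, which only some trees expressed at measurable levels. In trees 1A, 2A and 2B it had 12.7 to 20.3 CPM at 10:00, against 30.4 to 42.2 CPM at 6:00, and every pair of these trees fell. In trees 1B, 3A and 3B the paired libraries had 0 to 0.0806 CPM at 10:00 and a count of 0 at 6:00, which allows up to 0.120 to 0.255 CPM (3 counts in each library, counting error only). The log2 change of -1.23 ± 0.18 (adjusted p = 0.000385) therefore rests on 5 of the 10 pairs. At 14:00 the mean over all trees was 0.132 CPM, and at 18:00 it was 0.0718 CPM. The library labelled 1B that was left out had 27.3 CPM of this transcript and the one labelled 2A had a count of 0, the reverse of the other libraries of those trees.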

How the data were processed

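A counts table and a normalized table were used. The first, as deposited, holds raw whole-number counts per transcript for 72 libraries, which the authors made with CASAVA 1.8 and Bowtie2 2.2.3 per the submitters' processing notes, and the reference they were aligned to is not given in the sources at hand. The second holds a normalized signal, which the authors made with DESeq per the same notes, without a version. Libraries were strand-specific per the labels' protocols. Tests used the counts of the 20 paired libraries: edgeR 4.0.16 in R 4.3.3, filterByExpr with its minimums of 10 counts per library and 15 in all, trimmed-mean (TMM) scaling, and quasi-likelihood F tests, two-sided, with Benjamini-Hochberg adjustment over all transcripts of a fit and a threshold of 0.05. The 10 tree-and-day pairs entered as a block, since the libraries of a pair come from the same tree per the labels. As a check, deviations from the collection means correlated within every pair (r from 0.62 to 0.82). Interactions of clock time with day and with tree used the same libraries. Each morning was also fitted alone with tree as block, and each list was followed in the libraries of the other day (36 on day 2, 34 on day 1). CPM levels use TMM factors over all 72 libraries. A log2 change of a single pair uses log2 levels with a pseudocount of 2 counts.

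Apart from the 6 near-absent ones, named transcripts have at least 10 CPM on average over the paired libraries. They are the 6 largest rises and 6 largest falls with 1 direction in all 10 pairs, the 3 of highest CPM and at least 2-fold change in each direction, the 2 largest differences between mornings in each direction, the 2 largest further changes to 14:00 of day 2 in each direction for risen and for fallen transcripts, and the 2 of smallest p between trees. The comparison, its members and lists were chosen with earlier results of these data known. Depth was 10.3 to 33.5 M counts per library, and counts near 0 limit the precision of low levels. The scripts were tested on simulated data. Alternatives were DESeq2 1.42.0, limma 3.58.1 on the authors' normalized values, median-of-ratios scaling, other filters and thresholds, other blocks, the pair of doubtful libraries kept or exchanged, sums over trees, and each tree left out. A DESeq2 likelihood ratio test and limma for the differences between trees were added after the data were seen.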

Additional observations from a re-analysis of the deposited data

Results flagged for a closer look

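In the groups of 4 to 6 trees of a clock time on a morning, 1 tree lay far from the others in 13 of 136 groups. The groups held levels of named transcripts, library totals or TMM factors, and all 13 were of named transcripts. Chance flags about 1 group in 20, or 6.8 of 136, if values are normally distributed, and CPM were taken without a log scale. At 10:00 the high values were 12.6 CPM of psme_t016454 in tree 2A on morning 1, 311.5 CPM of psme_t020047 in 3A on morning 1, 6.11 CPM of psme_t033818 and 3.44 CPM of psme_t055959 in 3A on morning 2, and 149 CPM of psme_t016361 and 454 CPM of psme_t020318 in 2B on morning 1. At 6:00 they were 3.74 CPM of psme_t001740 in 3A on morning 2, 263 CPM of psme_t024398 in 1A on morning 1, 29.0 CPM of psme_t050609 in 1A on morning 2, and 12.9 CPM of psme_t059487 in 3A on morning 1 and 15.5 CPM in 3B on morning 2. Low values were 1005 CPM of psme_t016090 in 2B on morning 1 at 6:00, where the doubtful libraries were left out, and 0.430 CPM of psme_t016053 in 2A on morning 2 at 6:00. The library of tree 2A with the high psme_t016454 is a 10:00 library whose 6:00 partner was left out.

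The change at 10:00 against 6:00 differed between the mornings by the test of the difference itself for 15 transcripts. The named ones, as morning 2 minus morning 1 on the log2 scale, were psme_t068311 (2.61), psme_t050609 (2.16), psme_t015491 (-1.62) and psme_t020047 (-1.21).

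The authors' normalized table holds 247 transcripts that the counts table does not. By limma with the pairs as a block, 8 of them were higher and 4 lower at 10:00 than at 6:00, 4.86%, against 20.4% of all 41382 transcripts of that table. The median normalized value of the 247 was 14.3 at 10:00 and 19.5 at 6:00. No filter on low values was used, and the part of level in this gap was not tested.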

How the results depend on the processing

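The named changes kept their direction in every setting tried. Of the recomputed values, 507 stayed on their side of the threshold, 21 no longer passed, mostly those of psme_t068311 and psme_t050609, and 2 of psme_t024906 newly passed. Without the block, psme_t021187, psme_t068311, psme_t050609, psme_t015491, psme_t059487 and psme_t030686 no longer passed. The counts moved more. Against the paired fit (3919 higher, 4497 lower of 35177 tested), 2606 of 19552 were higher with at least 1 CPM in every library. That is a smaller count but a larger share, since fewer transcripts were tested. With no replicate block 843 were higher and 1203 lower, and with counts summed over trees 1285 and 1210. At an adjusted p under 0.01 there were 2056 and 2635, and at a change of at least 2-fold 985 and 827. Leaving out each tree gave 2596 to 3867 higher. The number of transcripts differing between mornings (15 of 35177) was 66 with median-of-ratios scaling and 598 in DESeq2 (adjusted p not given for 12958). It was 1166 of 155153 tested without a filter and 122 of 19552 with at least 1 CPM in every library. Without the block it was 0, and with tree and day as separate terms also 0. With the doubtful libraries kept or exchanged it was 37 and 340. It was 0 at an adjusted p under 0.01, 7 with 4 trees, and 1 to 74 with each tree left out. On morning 1 alone (576 higher, 802 lower) it was 18 and 17 without the block, and each tree left out gave 210 to 843 higher and 312 to 882 lower. On morning 2 alone (3923 and 3701), 1835 and 1767 passed in 4 trees and 389 and 441 without the block. DESeq2's likelihood ratio test, added after the data were seen, passed 52 between trees, against 0. Of the morning 1 lists, 68.5% passed in their direction at 14:00 of day 2 (20.2% higher and 19.6% lower of all), and of the morning 2 lists 41.3% did on day 1 (10.5% and 11.2% of all). The cause of these moves was not tested. Low counts limit the changes of transcripts near 1 CPM.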
